A study of Mus musculus with 4 samples.

Results

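The cytosolic ribosomal protein genes were taken as all array probes whose gene name is Rpl or Rps followed by a number, Rplp0, Rplp1, Rplp2 or Rpsa, without the Rps6k kinases and without Rps19bp1, which encodes a binding partner. This gave 142 of 41174 probes and 83 of 27827 gene names, of which 51 belong to the large and 32 to the small ribosomal subunit. They were measured in 4 mouse embryonic fibroblast (MEF) lines, each on 1 single-colour Agilent array, with 2 Ip6k1+/+ lines and 2 Ip6k1-/- lines. Ip6k1 encodes an inositol hexakisphosphate kinase that makes inositol pyrophosphates. Each line came from 1 embryo at embryonic day 14, all embryos came from 1 litter of heterozygous parents, and every line of both genotypes was immortalised with the SV40 large T antigen. The lines were sampled during exponential growth without further treatment, so that a difference between genotypes rests on 2 embryos against 2 and the p-values measure the spread between these lines.

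The ribosome is built from ribosomal RNA and a set of ribosomal proteins, most of which occur once in each particle, and growing cells such as fibroblasts in culture devote much of their messenger RNA to them. The small subunit decodes the messenger RNA, and the large subunit joins amino acids and holds the tunnel through which the new chain leaves. Most vertebrate ribosomal protein messenger RNAs start with a C followed by a run of C and T bases, the terminal oligopyrimidine (TOP) tract, through which the mTOR pathway sets their translation, and the genes have left many processed pseudogenes, copies of the spliced message, in the genome.

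The probe sequences on which the largest differences among the members rest are shown here, since near-identical copies bear on what such a probe measures. The positions are those of the array files, build mm9. Rps3a encodes a small subunit protein and has 2 probes on the minus strand of chromosome 3. The first, A_51_P292357, aligns to chr3:85942027-85942458, a stretch longer than the 60 bases of the probe, so that in these coordinates it crosses an intron. The second, A_52_P49886, is placed by the files only in part, at chr3:85941868-85941892. Both are printed whole.
Rps3a, A_51_P292357: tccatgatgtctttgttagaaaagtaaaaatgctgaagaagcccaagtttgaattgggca
Rps3a, A_52_P49886: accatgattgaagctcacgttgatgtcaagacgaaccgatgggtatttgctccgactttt

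Rpl29 encodes a small basic protein of the large subunit and has 4 probes on the plus strand of chromosome 9. Probe 1, A_51_P400137, spans an intron at chr9:106331969-106332651. Probe 2, A_52_P326158, lies at chr9:106332644-106332703, probe 3, A_52_P505977, at chr9:106333409-106333468 and probe 4, A_52_P217069, at chr9:106333436-106333495. A comparison of every member probe with all probes of the array, without gaps, found 2 probes outside the members that resemble Rpl29. The probe of TC1686295, a transcript that the files describe as like a rat ribosomal protein and place on the minus strand at chr6:39140786-39140845, matched Rpl29 probe 2 in 51 of 58 aligned bases. The probe of NAP030437-1, on chromosome 10, matched Rpl29 probe 3 in 28 of 34 aligned bases. Rpl29 probes 3 and 4 matched each other in 30 of 33 bases. Capitals mark the aligned bases that differ, between probe 2 and TC1686295, between probes 3 and 4, and in NAP030437-1 against probe 3.
Rpl29 probe 1: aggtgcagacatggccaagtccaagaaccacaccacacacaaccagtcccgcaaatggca
Rpl29 probe 2: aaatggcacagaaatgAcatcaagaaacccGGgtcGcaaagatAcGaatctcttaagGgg
TC1686295: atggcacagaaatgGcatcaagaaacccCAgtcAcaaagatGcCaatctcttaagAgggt
Rpl29 probe 3: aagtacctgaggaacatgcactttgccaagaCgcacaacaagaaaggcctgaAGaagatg
Rpl29 probe 4: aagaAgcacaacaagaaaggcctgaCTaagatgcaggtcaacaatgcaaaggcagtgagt
NAP030437-1: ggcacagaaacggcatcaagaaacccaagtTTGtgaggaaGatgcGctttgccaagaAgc

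The TOP tract is a feature that the naming rule did not use. It was searched on the sense strand of RefSeq starts (build GRCm38.p6) as a C followed by at least 4 bases that are each C or T, with the first C at most 5 bases from the annotated start. Such a tract was present in 29 of the 63 members with a sequence (46.0%), against 5718 of 27025 genes in all (21.2%). It was present in 17 of 39 large subunit genes (43.6%) and 12 of 24 small subunit genes, while the share was 24.6% for the 69 mitochondrial ribosomal protein genes and 18.9% for the 74 ribosome assembly factors with a sequence. Annotated starts can lie some bases from the starts used, and no match says only that the letters are not in this window. Members are shown from 15 bases before to 15 bases after the annotated start, with the tract in capitals. They are the 3 of each subunit with the longest tract as marked, chosen by that length alone. The length was counted from the first C found at most 5 bases from the annotated start. C and T bases directly before that C were not counted, as in Rpl35 and in Rpl7a and Rpl34 (not shown). By the whole run of C and T bases the order would differ. A tract that runs to the end of the stretch, as in Rpl27a and in Rpl13a (not shown), was counted only up to there.
Rpl27a, plus strand, chr7:109519180-109519209: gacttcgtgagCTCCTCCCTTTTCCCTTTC
Rpl15, minus strand, chr14:18270972-18271001: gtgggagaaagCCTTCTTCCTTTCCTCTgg
Rpl35, minus strand, chr2:39005117-39005146: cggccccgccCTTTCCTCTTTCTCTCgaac
Rps10, minus strand, chr17:27635230-27635259: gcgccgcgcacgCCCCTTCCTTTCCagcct
Rps18, minus strand, chr17:33955651-33955680: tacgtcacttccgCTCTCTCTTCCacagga
Rps6, minus strand, chr4:86857353-86857382: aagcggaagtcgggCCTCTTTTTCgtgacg

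The genotype was examined first on the targeted gene. Log2 signals are relative to the 75th percentile of each array, which is set to 0. Of the 3 Ip6k1 probes, A_51_P103718 read 2.46 and 2.61 for Ip6k1+/+ and -1.98 and -1.22 for Ip6k1-/-, with a limma adjusted p of 0.356. Both other Ip6k1 probes (limma adjusted p of 0.0347 each) did not stand well above background on any Ip6k1-/- array, and their calls were lost without any 1 of the 4 arrays. Of 14 fibroblast markers, 13 were well above background on all arrays, against 1 of 6 epithelial, 1 of 5 endothelial, 1 of 6 haematopoietic, 1 of 5 muscle and 1 of 4 neural markers. Of the 11 fibroblast markers with an unsaturated value, 9 were lower by the mean in Ip6k1-/- lines, with a median difference of -0.71. Their summed signal, without saturated probes, was 8.12 and 8.45 for Ip6k1+/+ and 7.56 and 7.54 for Ip6k1-/- on the log2 scale, so that both knockout lines were lower. That of 6 proliferation markers was 6.89 and 6.91 for Ip6k1+/+ against 7.00 and 7.16. The part of these markers in the results was not tested. In such bulk samples, fewer cells of a type and less RNA per cell cannot be told apart.

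Ribosomal protein messages were among the brightest on the arrays, and this limited what could be measured. Of the 142 member probes, 50 were saturated on all 4 arrays, 18 on some and 74 on none. The share of member probes saturated was 35.9% and 47.9% on the Ip6k1+/+ arrays and 35.2% and 44.4% on the Ip6k1-/- arrays, while it was between 0.290% and 0.380% for all other probes. Saturation was more frequent in both replicate 2 lines. Of the 18 probes that saturated on some arrays, 12 did so in exactly the replicate 2 line of each genotype and 5 in Ip6k1+/+ replicate 2 alone. The 50 fully saturated probes differed between genotypes by a median of 0.003 before scaling and by 0.067 after it (range 0.046 to 0.091), while the log2 75th percentile was lower by 0.063 in Ip6k1-/- lines (a difference of -0.063), so that their scaled differences hold the scaling and no measured level.

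Saturated probes were therefore left out of every gene value. In this way 51 genes had a value, from their brightest probe that was saturated on no array, with 29 in the large and 22 in the small subunit. All passing probes of the other 30 genes were saturated on at least 1 array. Of these, 20 belong to the large subunit, such as Rpl3, Rpl5, Rpl8, Rpl12, Rpl23a, Rpl26, Rpl35, Rpl39, Rplp1 and Rplp2, and 10 to the small subunit, such as Rps2, Rps14, Rps23 and Rps26. For these genes the arrays gave a lower bound in 1 or more lines, and no difference is given. Rpl3l, the striated muscle paralog of Rpl3, did not stand well above background on any of the arrays. Rpl39l, a paralog of Rpl39 known from testis, also did not pass the filter.

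**Figure D1:**
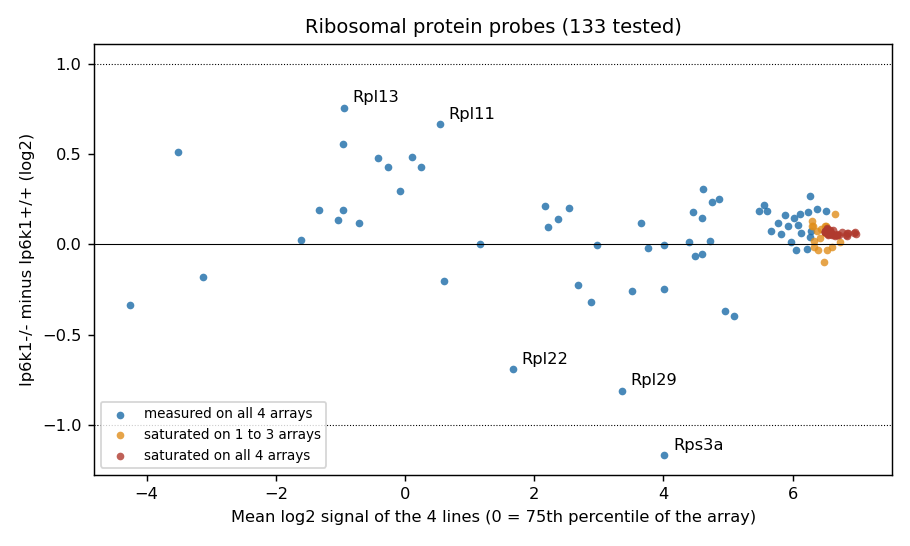
Difference between genotypes (log2, vertical) against mean signal (log2, 0 = 75th percentile of the array, horizontal) for the 133 member probes tested, coloured by saturation. The 50 probes saturated on all arrays lie in a narrow band at the bright end, and Rps3a (dotted lines mark 2-fold) is the only probe beyond -1.

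No ribosomal protein probe passed the threshold for a difference between genotypes in the test across all probes. Of the 133 member probes tested, 0 had a limma adjusted p of at most 0.05, where 3 of 21572 probes did (0.0139%). The 133 include 50 probes saturated on all 4 arrays, which could not show a difference, and 18 saturated on some. The other 65 were unsaturated. At an unadjusted p of at most 0.05 there were 3 member probes, where 3.35% of all probes passed. The 3 were 1 unsaturated probe each of Rps3a, Rpl29 and Rpl22, and all 3 were lower in Ip6k1-/- MEFs. By the 2-fold cutoff (means apart by 1 or more on the log2 scale and both single knockout lines by 0.9 or more) 0 members were higher, where 1.49% of gene names were, and 1 member, Rps3a, was lower, where 2.5% were.

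The 65 member probes that were well above background and unsaturated on all 4 arrays, for 51 genes, set the precision. Their differences ran from -1.17 to 0.76, 46 were positive and 19 negative, and 58 lay within 0.5 of 0. The median standard error was 0.22. For 46 of the 65, the 95% confidence interval of the difference lay within 2-fold in both directions, and for the others it reached 2-fold or beyond.

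Rps3a had the largest difference. Its intron-crossing probe read 4.80 and 4.38 for Ip6k1+/+ and 3.32 and 3.54 for Ip6k1-/-. Both Ip6k1-/- lines were below both Ip6k1+/+ lines, by more than the distance between lines of a genotype. The difference was -1.17 (standard error 0.23, 95% confidence interval -1.77 to -0.57, limma unadjusted p = 0.0044, adjusted p = 0.994). Rps3a was not past the 2-fold cutoff without Ip6k1+/+ replicate 1. The other Rps3a probe was saturated on all arrays and gives no second measurement.

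Rpl22, an RNA-binding protein of the large subunit, was lower on its unsaturated probe, A_52_P391718. Its signals were 1.88 and 2.14 in Ip6k1+/+ and 1.29 and 1.35 in Ip6k1-/- lines, which is a difference of -0.69 (standard error 0.21, by limma unadjusted p = 0.025, adjusted p = 0.994). The lines of the genotypes did not overlap. The other, brighter Rpl22 probe was saturated in the replicate 2 lines. In the replicate 1 lines, near the ceiling, that probe read 6.48 for Ip6k1+/+ and 6.51 for Ip6k1-/-, and so was not lower.

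Its paralog Rpl22l1 was measured on an unsaturated probe. The Ip6k1+/+ lines were at 5.21 and 5.35 and the Ip6k1-/- lines at 5.04 and 4.73, so that both knockout lines were lower here too. The difference was -0.40 (standard error 0.20, limma adjusted p = 0.994). A second Rpl22l1 probe did not stand well above background on any of the arrays.

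Rpl29 was lower on all 4 of its probes. Probe 1, the brightest, had signals of 5.02 and 5.25 in Ip6k1+/+ and of 4.65 and 4.88 in Ip6k1-/- lines, a difference of -0.37 (standard error 0.19). Probe 2 had 3.59 and 3.93 in Ip6k1+/+ and 2.81 and 3.09 in Ip6k1-/- lines, which is a difference of -0.81 (standard error 0.22, by limma unadjusted p = 0.017, adjusted p = 0.994). Probes 3 and 4 differed by -0.26 and -0.20. The lines did not overlap on probes 1, 2 and 3, and they overlapped on probe 4. The probe 4 difference was -0.41 without Ip6k1-/- replicate 2 and 0.0096 without Ip6k1-/- replicate 1, the extremes over the alternatives run. The 4 probes share a gene and are not independent measurements of it.

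Both probes that resemble Rpl29 in sequence were lower in Ip6k1-/- lines by more than Rpl29 itself. TC1686295 fell, reading 2.88 and 3.28 for Ip6k1+/+ and -3.39 and -3.45 for Ip6k1-/-. Its difference of -6.50 (standard error 0.27, limma adjusted p = 0.0347) was the only one of the 21572 past the threshold beside those of the 2 Ip6k1 probes, and it lost the call without any 1 of the 4 arrays. NAP030437-1 had -2.26 and -1.80 in Ip6k1+/+ and -4.61 and -4.40 in Ip6k1-/- lines, and thus differed by -2.47 (standard error 0.35 and adjusted p 0.713 by limma). Of the 4 Rpl29 probes, the one with the largest difference is the one whose sequence is like TC1686295. The part of such copies in the Rpl29 values was not tested.

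**Figure D2:**
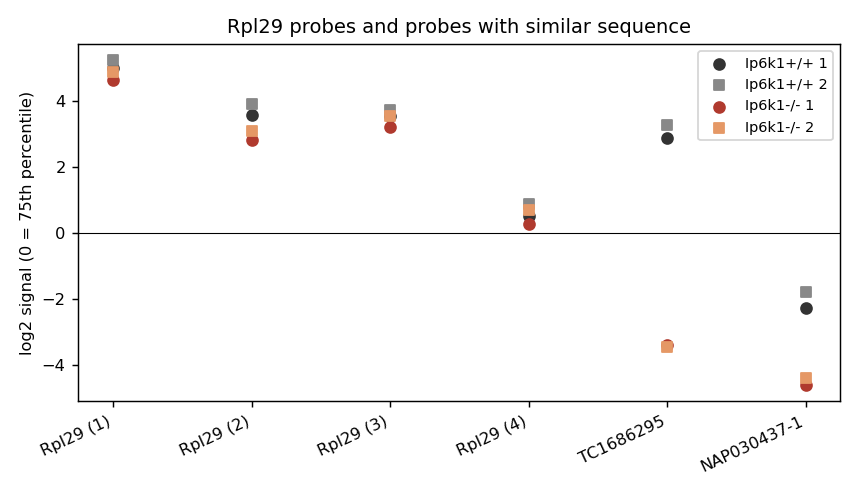
Log2 signal (0 = 75th percentile of the array) of the 4 lines on the Rpl29 probes, numbered as in the text, and on the probes of TC1686295 and NAP030437-1. The Rpl29 probes differ by -0.20 to -0.81 between genotypes, TC1686295 by -6.50 and NAP030437-1 by -2.47.

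Rpl29 also lies on the chromosome of Ip6k1, at 1.62 Mb from it. Among the 181 other measured probes within 5 Mb of Ip6k1, the median difference was 0.11. Both knockout lines were lower for 12.7% of them, where 13.6% of all genes were. Both were higher for 48 of the 181, where 17.8% of all genes were. The remaining members on chromosome 9 with a value lie farther off. Rpsa at 12.1 Mb differed by -0.030 on its brighter probe, Rpl14 at 12.5 Mb by 0.095, Rps27l at 41.2 Mb by 0.11, Rpl4 at 43.9 Mb by 0.18 and Rps25 at 63.7 Mb by 0.19. In each of these the lines of the genotypes overlapped. Sequence linked to the targeted locus and the genotype cannot be told apart in these lines.

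Rps4x and Rpl23 completed the members with both Ip6k1-/- lines below both Ip6k1+/+ lines. Rps4x, an X-linked small subunit protein, differed by -0.34 (standard error 0.34) on a dim probe, at -4.11 and -4.06 in Ip6k1+/+ and -4.58 and -4.27 in Ip6k1-/- lines. Rpl23 differed by -0.32 (standard error 0.19) on its unsaturated probe, from 3.02 and 3.05 to 2.60 and 2.82. Its other, brighter probe was saturated in the replicate 2 lines. In the replicate 1 lines, near the ceiling, that probe read 6.51 for Ip6k1+/+ and 6.55 for Ip6k1-/-, and so was not lower.

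**Figure D3:**
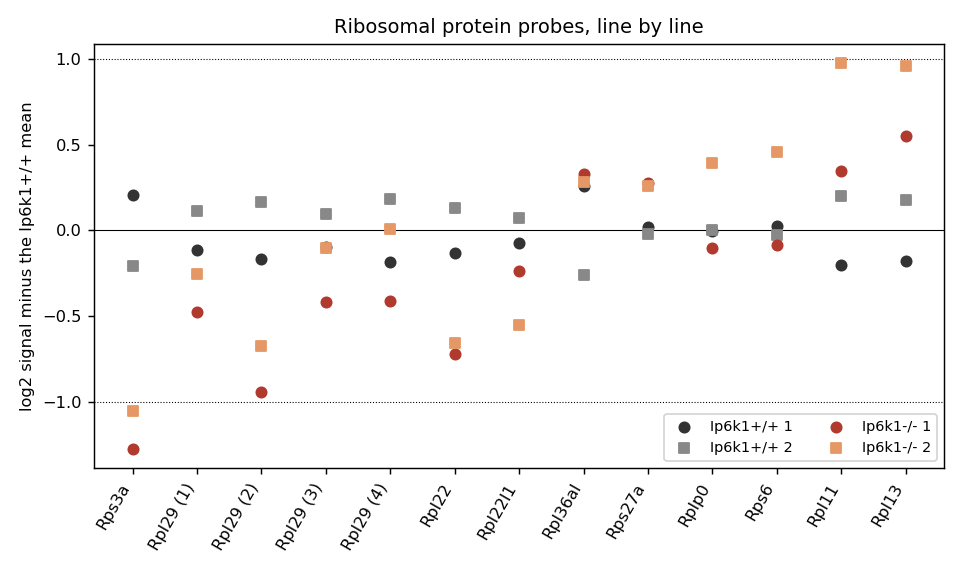
Log2 signal of each line minus the Ip6k1+/+ mean for single member probes, with the Rpl29 probes numbered as in the text and 2-fold marked by dotted lines. Both Ip6k1-/- lines lie below both Ip6k1+/+ lines for Rps3a, Rpl22 and Rpl22l1, and both lie above for Rpl11 and Rpl13.

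By any probe, the 5 members with the most positive difference were Rpl13, Rpl11, Rps13, Rps18 and Rpl7l1. Rpl13 read -1.51 and -1.15 for Ip6k1+/+ and -0.78 and -0.37 for Ip6k1-/-, a difference of 0.76 (standard error 0.31 and adjusted p 0.994 by limma). Rpl11 had -0.00046 and 0.41 in Ip6k1+/+ and 0.55 and 1.18 in Ip6k1-/- lines, a difference of 0.66 (standard error 0.33). Rps13 differed by 0.55 (standard error 0.32) and Rps18 by 0.51 (standard error 0.36), and Rpl7l1, a Rpl7 paralog, by 0.48 (standard error 0.25) on its dimmer and by 0.20 on its brighter probe. In each of these 5 the knockout lines did not overlap the Ip6k1+/+ lines on the probe named first.

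Except for Rpl7l1, these were dim second probes of genes with another probe saturated on all arrays. There were 9 such probes with a mean log2 signal under 2, a set chosen after its values were seen, for Rpl11, Rpl13, Rps4x, Rps12, Rps13, Rps18, Rps20, Rps25 and Rps28. Of these, 8 had a positive difference, with a median of 0.48 over the 9, and in 6 both knockout lines were above both Ip6k1+/+ lines. Over all 19 member probes under the same limit, 15 were positive, 8 (42.1%) had both knockout lines above, and the median was 0.19. Over all 15030 measured probes under it, 56.4% were positive, 17.9% had both knockout lines above, and the median was 0.052. Which transcript form the dim probes read is not given in the files.

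The members are given next by their role in the ribosome. In the stalk, which recruits the translation factors, Rplp0 read 5.95 and 5.96 in Ip6k1+/+ and 5.85 and 6.34 in Ip6k1-/- lines on its unsaturated probe, a difference of 0.15 (standard error 0.23) with overlapping lines. Rplp1, Rplp2 and Rpl12 were saturated. Rpl5 and Rpl11, which enter the large subunit together with a small ribosomal RNA and can bind Mdm2, could not be compared, since Rpl5 was saturated and Rpl11 had only the dim probe above. Near the peptidyl transferase centre, Rpl10 differed by 0.057 (standard error 0.23), and Rpl3 and Rpl8 were saturated.

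Around the exit of the peptide tunnel, Rpl17 differed by 0.12, Rpl19 by 0.10 and Rpl31 by 0.14, each with overlapping lines, while Rpl23a, Rpl26, Rpl35 and Rpl39 were saturated. Along the messenger RNA path of the small subunit, Rps3 differed by 0.020, Rpsa by -0.030 and Rps28, on a dim probe, by 0.48, and Rps2, Rps14, Rps23 and Rps26 were saturated. Rps6, the target of the S6 kinases, read 5.53 and 5.48 in Ip6k1+/+ and 5.42 and 5.97 in Ip6k1-/- lines, a difference of 0.19 (standard error 0.24), with Ip6k1-/- replicate 2 alone above the Ip6k1+/+ lines. Its other probe did not stand well above background on any of the arrays.

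Rps27a, made as a fusion with ubiquitin, had lines of each genotype close together. Its signals were 6.15 and 6.11 in Ip6k1+/+ and 6.41 and 6.39 in Ip6k1-/- lines, a difference of 0.27 (standard error 0.16 and adjusted p 0.994 by limma), and the genotypes did not overlap. The probe is near the ceiling without being saturated on any array.

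The paralogs, which replace a core protein in some tissues, differed in both directions, Rpl22l1 being lower as above. Rpl36al, a retrocopy of Rpl36a, differed by 0.30 (standard error 0.24) with both knockout lines higher, Rpl36a itself by 0.17 and Rps27l by 0.11 (standard error 0.18). Rpl39l was well above background only in the replicate 2 lines on 1 probe, at -1.64 in Ip6k1+/+ and -1.14 in Ip6k1-/-, and not in the replicate 1 lines, at -6.90 and -6.92. Of 9 genes mutated in Diamond-Blackfan anaemia, an inherited failure of red cell formation, 6 had a value, 4 of them positive and 2 negative, with a median of 0.11.

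Over all 51 genes with a value, the median difference was 0.11, against 0.034 over 14193 genes. It was positive in 35 and negative in 16 genes, and 54% of all genes were positive. Line by line and relative to the Ip6k1+/+ mean, the median was -0.068 and 0.068 for Ip6k1+/+, and -0.046 and 0.22 for Ip6k1-/-. Without Ip6k1-/- replicate 2 the median was -0.046, with 21 of 51 genes positive, and without Ip6k1-/- replicate 1 it was 0.23, with 44 of 53 positive. The sign of the median therefore rested on Ip6k1-/- replicate 2.

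Both Ip6k1-/- lines were above both Ip6k1+/+ lines in 13 of the 51 genes (25.5%), where 17.8% of all genes were, and below in 6 (11.8%), where 13.6% were. Among the 13, 6 were read on the dim second probes described above, those of Rpl11, Rpl13, Rps12, Rps13, Rps18 and Rps28. The excess over 17.8% therefore rested on these probes. Beside members already named, both knockout lines were above for Rpl6, Rpl30 and Rps21, among others, with differences of 0.20, 0.25 and 0.12.

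The medians of large and small subunit genes differed by less than the spread between lines. The median difference was 0.10 over 29 large subunit genes, 19 of them positive, and 0.11 over 22 small subunit genes, 16 of them positive. The subunits differ in the kind of probe used. The dim second probes described above gave the values of Rpl11 and Rpl13 in the large subunit. In the small subunit they gave those of Rps4x, Rps12, Rps13, Rps18, Rps20, Rps25 and Rps28. The subunits were not compared without these probes. Large minus small was -0.014, where the SD between lines of the same quantity was 0.069 (2 lines per genotype), and it was 0.073 without Ip6k1-/- replicate 1. By line, the large subunit was at -0.085 and 0.23 and the small subunit at -0.026 and 0.17 for Ip6k1-/-. In both subunits Ip6k1-/- replicate 2 was the higher line. No test was made, since members were chosen with results known.

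**Figure D4:**
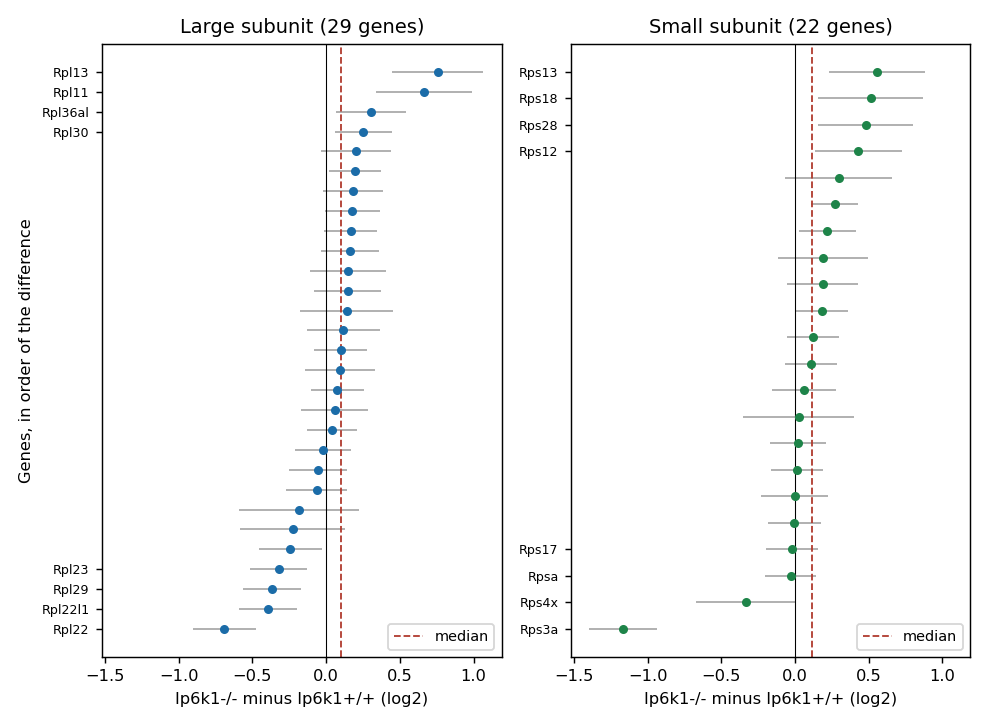
Difference between genotypes (log2, points, with standard errors from limma) for the 29 large and 22 small subunit genes with a value, in order of the difference, with names for the 4 highest and 4 lowest of each subunit and the median of each subunit as a dashed line at 0.10 and 0.11. Rpl22 and Rps3a stand at the lower end, and Rpl13 and Rps13 at the upper.

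Where a gene had more than 1 measured probe, the probes mostly gave the same sign. This was so in 8 of 12 genes. In Rpl21, Rpl24, Rpl27a and Rpsa the signs were opposite, but no gene had probes of opposite sign that were each at least 0.5. The range between probes of a gene had a median of 0.12 and was largest in Rpl29, at 0.61.

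Genes that make ribosomes or work with them were described by the same counts. Of 84 ribosome assembly factors, which process ribosomal RNA and load the proteins onto it, 81 were higher in Ip6k1-/- lines by the mean, with a median difference of 0.46, and in 68 (81.0%) both knockout lines were above both Ip6k1+/+ lines, where 17.8% of all genes were. The median was 0.27 in Ip6k1-/- replicate 1 and 0.62 in replicate 2, so that both lines shared the direction. None of the 84 passed limma's threshold. At an unadjusted p of at most 0.05 there were 6, all higher, where 534 of 14193 genes passed, 193 of them higher. The 4 past the 2-fold cutoff, where 149 of the 14193 genes were past it and higher, were Surf6, Gar1, Rrp12 and Sdad1, all acting in the nucleolus. Surf6 had -1.57 and 0.47 in Ip6k1+/+ and 0.79 and 1.15 in Ip6k1-/- lines, which differed by 1.52 (standard error 0.71). Gar1 differed by 1.34 (standard error 0.59), with -0.034 and 1.56 against 1.81 and 2.39. Rrp12 differed by 1.19 (standard error 0.34), with -1.40 and -0.78 against -0.075 and 0.28. Sdad1 differed by 1.12 (standard error 0.45), with 1.45 and 2.64 against 2.95 and 3.37. In all 4 genes Ip6k1+/+ replicate 1 was the lowest line, and without it the differences were 0.50, 0.54, 0.88 and 0.52 in this order, each under 2-fold.

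RNA polymerase I, which transcribes the large ribosomal RNA, had 17 of 19 genes of its list positive (median 0.33), and the RNA exosome with the nuclease Xrn2, which trim ribosomal RNA, 10 of 11 (median 0.36). Of 35 translation factors 29 were positive (median 0.27), and of 75 mitochondrial ribosomal proteins 63 were (median 0.18). Over all genes 54% were positive. Both knockout lines were above in 57.9% of the RNA polymerase I list and 72.7% of the exosome list. They were above in 45.7% of translation factors and 46.7% of mitochondrial ribosomal proteins, where 17.8% of all genes were. None of the genes of these lists passed limma's threshold. Ribosomal proteins stood below all of these lists in their median, and the difference between the lists was not tested.

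Of 15 non-ribosomal genes with TOP messages, 11 were positive (median 0.16), and in 2 (13.3%) both knockout lines were above, where 17.8% of all genes were. The 2 were the nucleolar chaperone Npm1, at 0.45 (standard error 0.24), and the elongation factor Eef1a1, at 0.22 (standard error 0.17). Eef2, another elongation factor, differed by 0.71 (standard error 0.54), with Ip6k1+/+ replicate 1 at 4.87 and the other lines between 6.17 and 6.54. Of 16 genes listed as regulators of ribosome production, such as genes of the mTOR, Myc and p53 pathways, 14 were positive (median 0.20). In 2 of these 16 (12.5%) both knockout lines were above, again under the 17.8% of all genes.

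**Figure D5:**
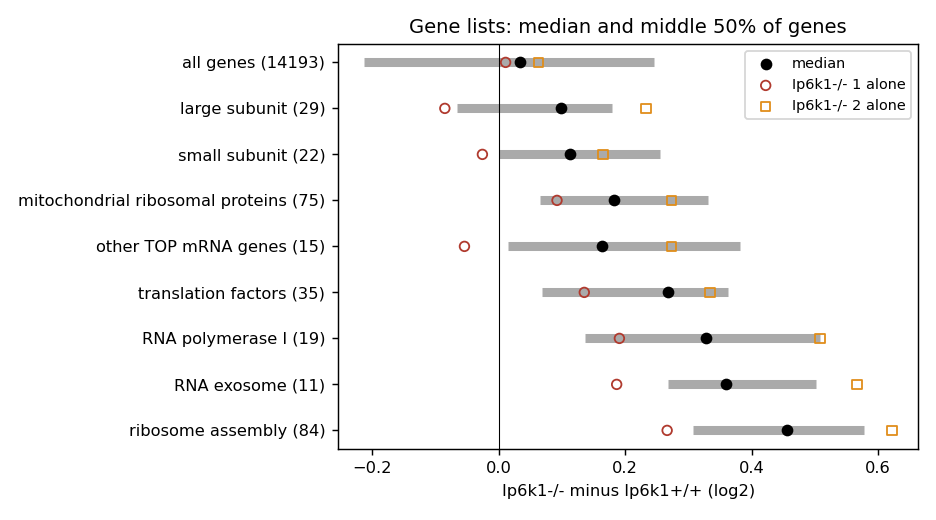
Median difference between genotypes (log2, black points) with the middle 50% of genes (grey bars) for gene lists, with the number of genes in brackets, and the median of each Ip6k1-/- line alone against the Ip6k1+/+ mean (open symbols). In the ribosomal protein lists the Ip6k1-/- lines lie on either side of 0, at -0.085 and 0.23 in the large subunit, and in ribosome assembly both lie above, at 0.27 and 0.62.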

How the data were processed

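Total RNA of 4 MEF lines was labelled with Cy3 and hybridised to 1 Agilent array each, all on 1 slide. The authors deposited the spot intensity of Feature Extraction 10.5.1.1, linear and background-subtracted, and also log2 values that GeneSpring had shifted by the 75th percentile. From the intensity, log2 was taken, outlier spots were left out (96, 99, 133 and 115), each array's 75th percentile was subtracted and spots of a probe were averaged. The deposited log2 values deviated from these by a median of at most 0.0025 around a constant per array. A probe was tested if well above background on both arrays of a genotype (21572 probes). A probe with any saturated spot counted as saturated on that array. The genotype difference was fitted in limma 3.58.1 (R 4.3.3) by lmFit and by eBayes with its trend option, p-values were adjusted by Benjamini-Hochberg across the whole set, and the 2-fold cutoff was applied besides. The code was tested on simulated data.

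The members and lists were chosen with earlier results of these data known. Named were Ip6k1, members of the role groups and paralogs, members past a threshold, the 5 highest and 5 lowest, members with dim or saturated probes, and list genes past a threshold. TOP tracts were searched in RefSeq sequences (GRCm38.p6), where all 83 members matched a gene and 63 had a sequence. Some members are counted but not reported by name here. The number of arrays limits the precision. Slide could not be used as a block. Alternatives were other scalings (median, quantile), normexp with an offset of 16, the deposited values, other filters, outlier and saturation rules, other probe summaries, other tests, the replicate number as a block, and each array left out in turn. Their effect is given at the end.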

Additional observations from a re-analysis of the deposited data

How the results depend on the processing

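The count of 0 ribosomal protein probes past limma's threshold was the same under all alternatives run, except that the methods' t-test without adjustment gave 3, on Rpl22, Rps27a and Rps3a, and 0 after Benjamini-Hochberg adjustment. With a replicate block the count was 0 as well, and it changed no call of Ip6k1. Replicate numbers are not stated to pair the lines, and replicate 1 minus replicate 2 correlated at 0.48 between genotypes over 21572 probes and at 0.37 over 65 unsaturated member probes. Rps3a alone was past the 2-fold cutoff under every alternative with 4 arrays except 1. Without a filter on dim probes there were 3, with Rpl22l1 at 1.20 and Rpl35a at -1.01 on probes well above background on 0 and 1 arrays. Leaving out each array gave between 0 and 2, with 0 without Ip6k1+/+ replicate 1, Rps3a and Rpl35a without Ip6k1+/+ replicate 2, and Rps3a and Rpl39l without Ip6k1-/- replicate 1. The median over the members ranged from -0.046 (without Ip6k1-/- replicate 2) to 0.23 when an array was left out, and from 0.049 to 0.16 over the other alternatives. Large minus small subunit ranged from -0.073 to 0.073 without an array, and was otherwise between -0.079 and 0.0068. Genes with both knockout lines above numbered 15 to 38 and those with both below 8 to 21 when an array was left out, where fewer lines have to be apart, and 7 and 2 when saturated probes were kept. The median of the ribosome assembly factors was between 0.27 and 0.62, with 80 to 83 of 84 positive. Ip6k1 had 2 probes past the threshold, and 0 with quantile normalization, normexp, no filter, the filter on all 4 arrays (these probes then left the test), the t-test after adjustment, and without any 1 array. TC1686295 lost its call under quantile normalization, normexp, the adjusted t-test and without any 1 array, with differences between -6.70 and -5.79. Of the differences of single probes, 854 were within 1 SD between lines or kept their call, 6 moved by more and 23 lost their call. Restricting gene values to probes without a saturated pixel, added after seeing the data, gave a median of 0.11 over 46 genes. Signals at the ceiling bound 30 of the 83 genes.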

Other observations

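Transcripts outside the naming rule that the files describe as ribosomal proteins or as similar to one numbered 48 probes, of which 36 were tested. On the 30 of them that were measured and unsaturated on all arrays, 27 differences were positive and 3 negative, with a median of 0.25. Over all genes 54% were positive. Past the 2-fold cutoff were 2 of the 36, both lower in Ip6k1-/- lines, where 2.5% of gene names were lower and 1.49% higher. These were TC1686295, described above, and 5830405M20Rik, described as similar to ribosomal protein S6. The latter read -4.79 and -2.11 for Ip6k1+/+ and -7.05 and -6.72 for Ip6k1-/-, and it was well above background on 2 of the 4 arrays (limma adjusted p = 0.994). It passed the filter only through the Ip6k1+/+ arrays, where it was higher, so that its difference is one to background.

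In all, 19 array probes outside the members matched at least 75% of 30 or more aligned bases of 14 member probes, for 12 genes. The closest by identity was EG665434 with a probe of Rpl17 (97.1% of 35 bases), which itself differed by 0.080 (standard error 0.24). For 2 member probes, of Rpl10 and Rpl12, the files place the probe on chromosomes 8 and 10, while RefSeq holds the genes on X and 2.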
